A study of Mus musculus with 3 samples.

Results

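The genes of the IL-6, IL-10 and IL-12 cytokine families were followed in mouse macrophages that had met a bacterial signal before. They were 10 genes, found by symbol among 55536 annotated genes. There were 5 chains of secreted dimers (Il12a, Il12b, Il23a, Il27 and Ebi3), the cytokines Il6 and Il10, and the receptor chains Il10ra, Il10rb and Il6st. The cells were C57BL/6J macrophages grown from bone marrow, in 3 libraries of polyadenylated RNA made from 1 µg each. All 3 carried the same labels: 100 ng/ml lipid A, the Toll-like receptor 4 ligand within bacterial lipopolysaccharide, for 12 h, then a washout of 12 h and a second 100 ng/ml for 480 min. The labels' treatment field names lipoprotein A instead, sex and age were not collected, and the libraries share 1 donor record without a statement that they came from separate animals. No untreated or singly stimulated library was analysed here, so no value below is a response to lipid A. In bulk RNA, fewer expressing cells and less RNA per cell cannot be told apart.

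These cytokines are helical proteins that signal through paired receptor chains and the JAK and STAT proteins. Several are dimers of a helical chain and a receptor-like chain, and the chains are shared: IL-12 joins Il12a with Il12b, IL-23 joins Il23a with Il12b, IL-27 joins Il27 with Ebi3, and IL-35 joins Il12a with Ebi3. Macrophages are a main source of IL-6, IL-12 and IL-23, which promote inflammation and T cell responses, and of IL-10, which restrains both through a receptor made of Il10ra and Il10rb, while Il6st (gp130) is the common signalling chain of the IL-6 family.

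Sequence before the transcription start was available for 5 of the 10 genes (6 windows, RefSeq, GRCm38.p6), and 3 windows are shown, that of Il6, which varied most between the libraries, and those of the well-expressed receptor-like chains Il12b and Ebi3. Each is the 250 bases before the start of a plus-strand gene, and capitals mark matches on either strand to any of 5 motifs, those of NF-kB, AP-1 (TGANTCA), C/EBP (TTGCNNAA) and the interferon response factors and the TATA box (TATAAA).
Il6, chr5:30012864-30013113: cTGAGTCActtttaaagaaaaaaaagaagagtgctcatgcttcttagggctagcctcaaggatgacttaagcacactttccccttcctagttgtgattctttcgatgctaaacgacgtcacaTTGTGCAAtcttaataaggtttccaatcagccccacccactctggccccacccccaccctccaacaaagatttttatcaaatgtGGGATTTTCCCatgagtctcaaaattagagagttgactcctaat
Il12b, chr11:44399813-44400062: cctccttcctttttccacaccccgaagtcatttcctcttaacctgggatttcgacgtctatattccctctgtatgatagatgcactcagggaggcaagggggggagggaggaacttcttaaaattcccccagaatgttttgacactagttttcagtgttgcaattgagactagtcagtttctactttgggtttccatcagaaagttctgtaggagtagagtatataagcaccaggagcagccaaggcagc
Ebi3, chr17:55952373-55952622: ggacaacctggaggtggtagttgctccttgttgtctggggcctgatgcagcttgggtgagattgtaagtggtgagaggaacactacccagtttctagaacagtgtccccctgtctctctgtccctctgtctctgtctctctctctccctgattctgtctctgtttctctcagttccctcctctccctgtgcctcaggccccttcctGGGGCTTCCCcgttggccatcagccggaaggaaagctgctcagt
The Il6 window held an NF-kB match starting 44 bases before the start, overlapped by a second on the other strand, a C/EBP match (TTGTGCAA) at 128 bases and an AP-1 match (TGAGTCA) at 249 bases. The Ebi3 window held an NF-kB match on the minus strand (GGGGCTTCCC) 44 bases before the start. No match to any of the 5 motifs occurred in the Il12b window or that of Il6st, and of 2 Il12a windows 1 held overlapping NF-kB matches. Among 32851 windows of the same length, 17.6% held the NF-kB pattern, 9.56% the C/EBP pattern, 6.75% the AP-1 pattern, 12.4% the TATA box and 2.98% the interferon response pattern. A match describes letters, not binding. Only exact matches to each pattern were counted, so a window without one may still hold a near variant of the element.

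Libraries held 24596382, 54016971 and 43127749 expected counts in replicates 1, 2 and 3. Replicate 2 stood apart in mitochondrially encoded messenger RNA, at 6.86% of counts against 1.06% and 1.13%, and in ribosomal RNA, at 0.232% against 3.21% and 1.97%. All 8 macrophage markers (Lyz2, Cd68, Adgre1 and others) reached 1 TPM in every library, with summed levels of 13482 to 16732 TPM. The same was reached by 1 of 6 dendritic cell markers (summed 2.43 to 4.15 TPM, Cd209a at 0), 2 of 5 neutrophil markers (summed 3.13 to 16.7 TPM, Ly6g at 0), 0 of 4 B cell markers (Cd79a at 0), 0 of 3 mast cell and 0 of 4 fibroblast markers. Of the 5 T cell markers only Cd4 reached it, at 20.0, 113 and 33.6 TPM in replicates 1, 2 and 3, and Cd3e lay at 0, 0.19 and 0 TPM.

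Il6 (ENSMUSG00000025746.11, mm10 chr5:30013114-30019981, plus strand), a cytokine that drives the acute-phase response, stood at 62.9, 3.25 and 7.90 TPM in replicates 1, 2 and 3. Replicate 1 was 19.4-fold above replicate 2, and the mean was 24.7 ± 33.2 TPM (SD, n = 3), or 5.58 TPM without replicate 1. In that library Il6 exceeded 81.8% of the 10350 protein-coding genes that reached 1 TPM in at least 1 library, and in replicates 2 and 3 it exceeded 22.0% and 31.6%. Il10 (ENSMUSG00000016529.5, chr1:131019845-131024974, plus strand), the inhibitory cytokine, stood at 22.9, 34.7 and 33.6 TPM, a mean of 30.4 ± 6.48. In the deposited TPM its highest library was 1.51-fold above its lowest, and the lowest was replicate 1, where Il6 was highest. So the ratio of Il10 to Il6 changed direction: Il10 was at 0.365 times Il6 in replicate 1, and 10.7-fold and 4.26-fold above it in replicates 2 and 3 (log2 ratio 1.33 ± 2.50).

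Of the IL-12 and IL-23 chains, the shared Il12b was well expressed and its partners were near the limit of detection. Il12b (ENSMUSG00000004296.14, chr11:44400063-44414033, plus strand), the receptor-like p40 chain, stood at 40.4, 24.7 and 68.6 TPM (44.6 ± 22.3), highest in replicate 3. Il12a (ENSMUSG00000027776.12, chr3:68690644-68698547, plus strand), the helical chain that completes IL-12, stood at 1.81, 0.19 and 0.10 TPM from 29, 6 and 3 counts. The counting intervals of replicates 2 and 3, 0.0703 to 0.417 and 0.0200 to 0.284 TPM, overlap each other and lie below replicate 1. Il23a (ENSMUSG00000025383.2, chr10:128296139-128298752, minus strand), which completes IL-23, had 13, 1 and 0 counts, that is 0.68 TPM (interval 0.360 to 1.16), 0.02 TPM (0.000405 to 0.0891) and 0 TPM, which allows up to 0.0760 TPM at 3 counts, a one-sided limit. Replicate 1 was thus again the highest library for both helical chains, and without it their means were 0.145 TPM for Il12a and 0.01 TPM for Il23a.

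Within each library Il12b exceeded both partners. Over Il12a it was 22.4-fold higher in replicate 1, 129-fold (59.2 to 351) in replicate 2 and 706-fold (242 to 3425) in replicate 3, where brackets give the counting interval of the rarer chain. Over Il23a it was 59.9-fold higher in replicate 1 (35.0 to 112), 1543-fold in replicate 2 (277 to 60932) and at least 903-fold higher in replicate 3 against 3 counts in that library. The mean log2 ratios were 6.42 ± 2.01 and 7.60 ± 1.86, and since the rarer chains are near 0 these depend on the added 0.1: with 1 TPM added they were 4.77 and 5.13. The ratio to Il23a also depended on the quantification. In the second, made from the same reads, Il12b was 9.55-fold, 105-fold and 898-fold above Il23a (mean log2 ratio 6.01), below the counting intervals of replicates 1 and 2 and the bound of replicate 3, which hold for the first quantification alone.

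Ebi3 (ENSMUSG00000003206.7, chr17:55952640-55957022, plus strand), the receptor-like chain of IL-27, had the highest mean of the 10 genes, at 260, 170 and 322 TPM (251 ± 76.0), above at least 93.3% of detected genes in every library. Il27 (ENSMUSG00000044701.5, chr7:126589010-126594941, minus strand), its helical partner, stood at 71.0, 14.0 and 16.1 TPM (33.7 ± 32.3, or 15.1 without replicate 1). Like the other helical partners it was highest in replicate 1, whereas Ebi3, like Il12b, was highest in replicate 3 and lowest in replicate 2. Ebi3 therefore exceeded Il27 by 3.66-fold, 12.2-fold and 19.9-fold in replicates 1, 2 and 3 (log2 ratio 3.26 ± 1.25). Against Il12a, its partner in IL-35, Ebi3 was 144-fold higher in replicate 1, 890-fold (409 to 2426) in replicate 2 and 3310-fold (1132 to 16048) in replicate 3. The receptor-like chains kept a closer ratio to each other: Ebi3 exceeded Il12b by 6.43-fold, 6.91-fold and 4.69-fold (log2 ratio 2.56 ± 0.30).

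**Figure D1:**
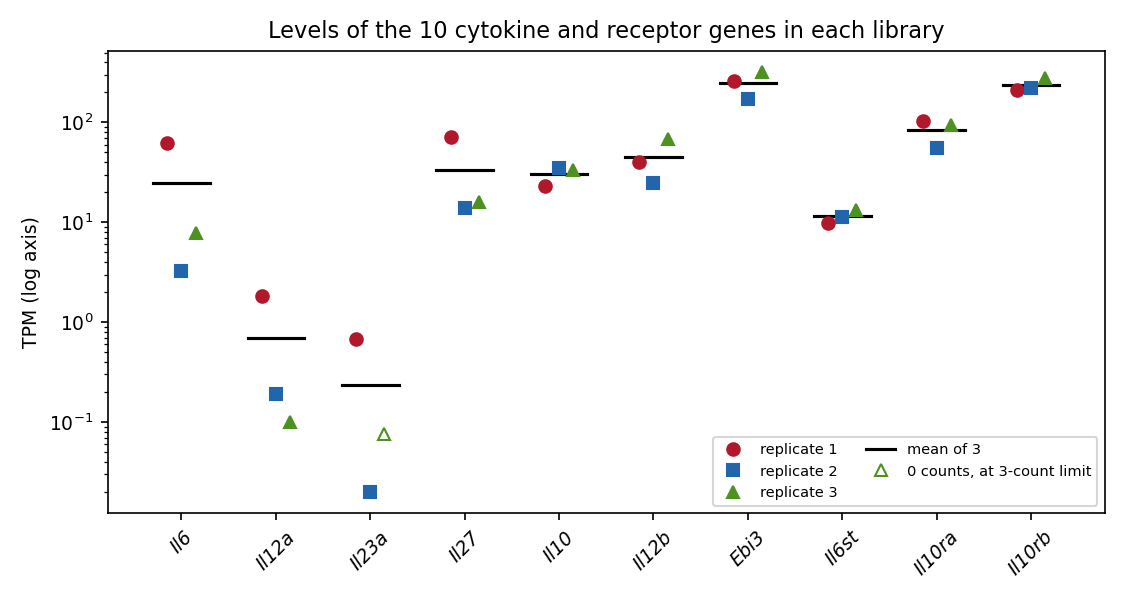
TPM of each of the 10 genes in each library on a log axis, with the 3-library mean as a bar; the open symbol is Il23a in replicate 3, with 0 counts, drawn at its limit of 0.0760 TPM. The helical chains and Il6 on the left have replicate 1 well above replicates 2 and 3, and the receptor chains on the right lie close together.

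The receptor chains had SDs of log2(TPM + 0.1) of 0.21 to 0.48 over the libraries. Il10rb (ENSMUSG00000022969.13, chr16:91406164-91425834, plus strand), the shared second chain of the IL-10 receptor, stood at 212, 219 and 279 TPM (237 ± 37.3). Il10ra (ENSMUSG00000032089.16, chr9:45253837-45269149, minus strand), the chain that binds IL-10 itself, stood at 103, 55.9 and 94.6 TPM (84.6 ± 25.2), below Il10rb in each library at 0.488, 0.255 and 0.338 times its level (log2 ratio -1.52 ± 0.47). Il6st (ENSMUSG00000021756.12, chr13:112464070-112510086, plus strand), gp130, stood at 9.83, 11.4 and 13.2 TPM (11.5 ± 1.69). Il6ra, which gives gp130 its specificity for IL-6, was at 7.48, 8.20 and 11.6 TPM, so that Il6st exceeded it by 1.31-fold, 1.38-fold and 1.14-fold (log2 ratio 0.35 ± 0.14). In the second quantification the mean was 0.20 and replicate 2 had Il6st at 0.986 times Il6ra.

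By mean TPM the order was Ebi3, Il10rb, Il10ra, Il12b, Il27, Il10, Il6, Il6st, Il12a and Il23a. Of 9 neighbouring pairs in it, 4 differed beyond their spread, their log2 difference having the same sign in every library and a mean larger than its SD. These were Il10rb over Il10ra, Il10ra over Il12b (1.00 ± 0.47), Il6st over Il12a (4.58 ± 1.94) and Il12a over Il23a (1.19 ± 0.16). The last rests on few counts, with overlapping counting intervals in replicate 2 and again in replicate 3. It did not hold in the second quantification, where replicate 1 had Il12a at 1.27 and Il23a at 3.23 TPM and the means were 0.588 and 1.19 TPM. The middle of the order, from Il12b through Il27, Il10 and Il6 to Il6st, was not resolved, since each neighbouring difference there changed sign between libraries, as did Ebi3 over Il10rb at the top (0.05 ± 0.36). Of the 10 ratios of related chains fixed for comparison, 8 had 1 sign in all 3 libraries, among them Il27 over Il12a (5.72 ± 0.57, and 4.10 with 1 TPM added). Il10 over Il6 and Il10 over Il12b (-0.45 ± 0.82) did not. Several of the 10 ratios share a chain, so the 8 are not separate observations. An exact two-sided sign-flip test over 3 libraries cannot give a p below 0.25, so none was used.

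**Figure D2:**
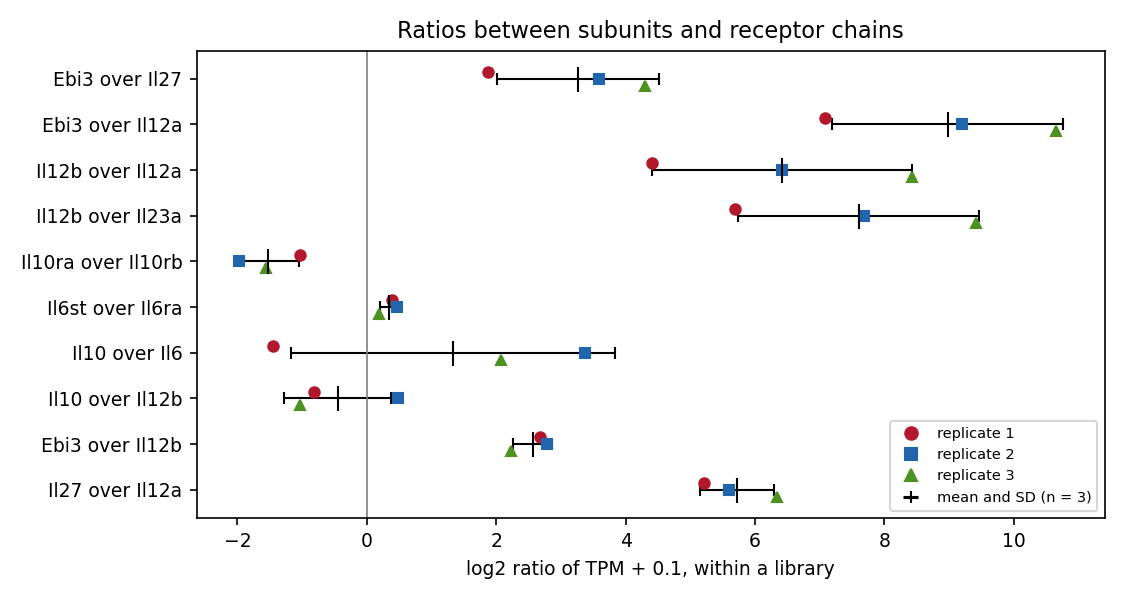
Log2 ratio of TPM + 0.1 between pairs of chains within each library, with the mean and SD over the 3 libraries (n = 3). All 5 ratios with Il12a, Il23a or Il27, which share chains with each other, have replicate 1 lowest. Ebi3 over Il12b (SD 0.30) and Il6st over Il6ra (SD 0.14) are the narrowest.

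In all, 8 of the 10 genes reached 1 TPM in every library, against 42.9% of 22028 protein-coding genes, and their median mean TPM was 32.0 against 15.1 for detected genes. The genes differed in which library was highest. Il6, Il12a, Il23a, Il27 and Il10ra were highest in replicate 1, where 26.9% of detected protein-coding genes had their maximum. Il10 was highest in replicate 2 (27.2% of detected genes) and the other 4 in replicate 3 (45.9%). As log2 deviations of TPM + 0.1 from their own mean, replicate 1 lay at 2.40 for Il6, 1.99 for Il12a, 1.89 for Il23a and 1.49 for Il27, against a median of 0.06 for detected genes. The other 6 genes lay between -0.38 (Il10) and 0.34 (Il10ra) in that library.

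The first 4 genes were highest in replicate 1, and Il10 lowest there, in the deposited TPM and in the second quantification. The same held with TPM rescaled to nuclear protein-coding genes and with TPM divided by TMM factors. The range of Il10 was wider than the deposited 22.9 to 34.7 TPM under each alternative. It was 25.4 to 46.9 (nuclear), 22.8 to 39.1 (TMM) and 15.7 to 35.5 TPM (second quantification). The maximum of Il10ra moved to replicate 3 in the second quantification, and that of Il6st from replicate 3 to replicate 2 under both rescalings. These scalings moved the median detected gene by 0.14, 0.43 and 0.17 (nuclear), by -0.01, 0.17 and -0.17 (TMM) and by -0.47, 0.06 and -0.10 log2 units (second quantification) in replicates 1, 2 and 3.

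**Figure D3:**
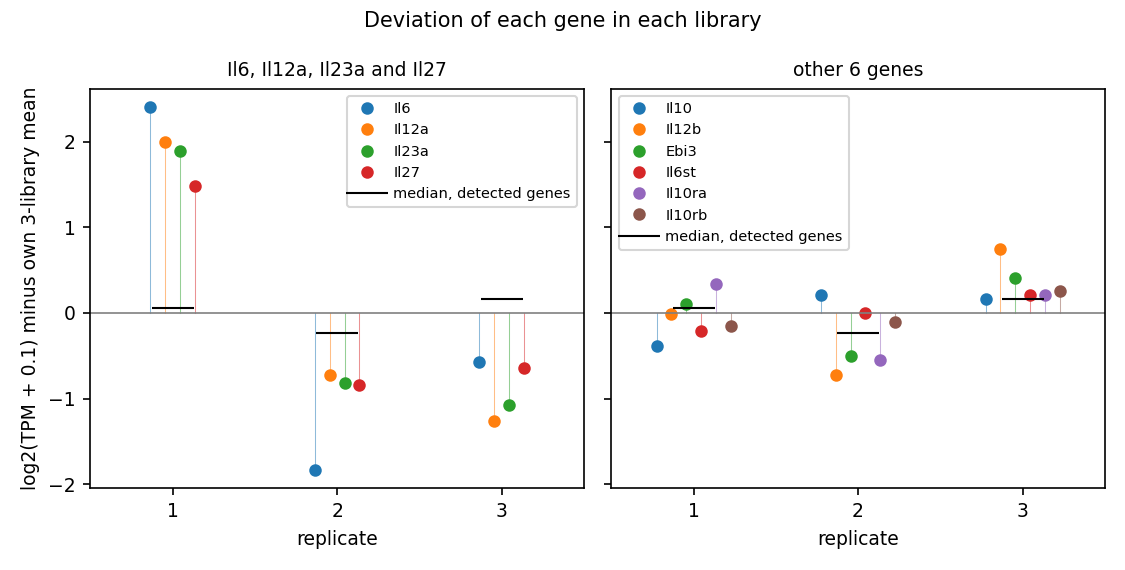
Log2(TPM + 0.1) of each gene in each library minus its own 3-library mean, with the median of 10350 detected protein-coding genes as a black bar. Il6, Il12a, Il23a and Il27 lie 1.49 to 2.40 above their mean in replicate 1, and the other 6 genes reach at most 0.74 above theirs in any library.

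The SD of these log2 values was 2.17 for Il6, larger than in 99.3% of detected genes. It was 1.75 for Il12a, 1.64 for Il23a and 1.29 for Il27, larger than in 98.5%, 98.0% and 95.4%. Il12a and Il23a had at most 29 and 13 counts, so their SDs include counting error and depend on the added 0.1 TPM. Il23a did not reach 1 TPM in any library, so it is not itself among the detected genes. At the other end, in the deposited TPM, were Il10 (0.33), Il10rb (0.22) and Il6st (0.21), with 37.6%, 20.8% and 19.6% of genes below them. The median was 0.61 over the 10 genes and 0.42 over detected genes.

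Counting noise alone did not cover the differences between libraries: 8 of 8 tested genes passed the chi-square test, with the largest Benjamini-Hochberg adjusted p at 1.28e-19 for Il6st, as did 87.9% of 11932 genes. Il12a and Il23a fell below edgeR's filter on low counts. Against genes of like abundance, edgeR's one-sided F test of excess spread called 0.0% of the 11932 genes and 0 of the 8, while 4.22% of genes (503) had an unadjusted p under 0.05. Il6 (F 28.7, unadjusted p of 0.00271) and Il27 (F 10.9, unadjusted p of 0.0187) were among these, each with an edgeR adjusted p of 0.933, and the other 6 had an unadjusted p of 0.215 to 0.771. Il6 passed without a filter on low counts (edgeR adjusted p = 0.0269) and without replicate 2 (0.00866), and its adjusted p was 0.0832 to 0.996 under the other alternatives. Over all genes, the test called 64 without that filter and 7 without replicate 2. Without replicate 1 the F of Il6 was 0.891 and that of Il27 was 0.116.

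Genes whose pattern over the libraries was nearest to that of Il6 were sought among 6270 protein-coding genes averaging 10 TPM or more, by the root mean square difference of log2 deviations over 3 libraries. Socs1 (35.1, 1.23 and 6.97 TPM, difference 0.47) and Socs3 (118, 10.5 and 41.0 TPM, difference 0.59), feedback inhibitors of JAK and STAT signalling, were the nearest. They were followed by Rps27rt (0.62), the adenosine receptor Adora2a (53.1, 8.18 and 11.0 TPM, 0.63) and Extl2 (0.67). The nearest to Il10 were Aplp2, Setdb1, Gpsm2, 1810022K09Rik and Plekhm1, to Il12b BC029722, Cerk, Lin37, Trappc2l and Mrpl55, and to Ebi3 Eif3k, Emc4, Rer1, Gabarap and Med10. Their differences were at most 0.04, so the genes nearest to Il6, at 0.47 to 0.67, were much less close. With 3 libraries all of these differences, those for Il6 included, are a description of 3 numbers per gene. A functional link was not tested.

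Other receptor chains of these families were uneven. Of 15 listed, 5 reached 1 TPM in every library and 5 were listed at 0 throughout. The 4 highest were Il12rb1, the chain shared by the IL-12 and IL-23 receptors (60.7, 14.8 and 42.3 TPM), Il11ra1 (23.1, 7.43 and 30.1 TPM, uncertain because near-identical copies exist), Il23r (15.2, 16.8 and 4.38 TPM) and Il6ra. The second IL-12 receptor chain, Il12rb2, was highest in replicate 2 at 11.4 TPM against 3.27 and 3.51, as was Cd4. The part of other cells in these levels was not tested. Il27ra, the specific chain of the IL-27 receptor, lay at 0.12, 0.05 and 0.09 TPM, in cells with Ebi3 above 170 TPM. Of 12 other ligands of the families 1 reached 1 TPM in every library, oncostatin M (Osm), at 8.81, 1.55 and 4.20 TPM.

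**Figure D4:**
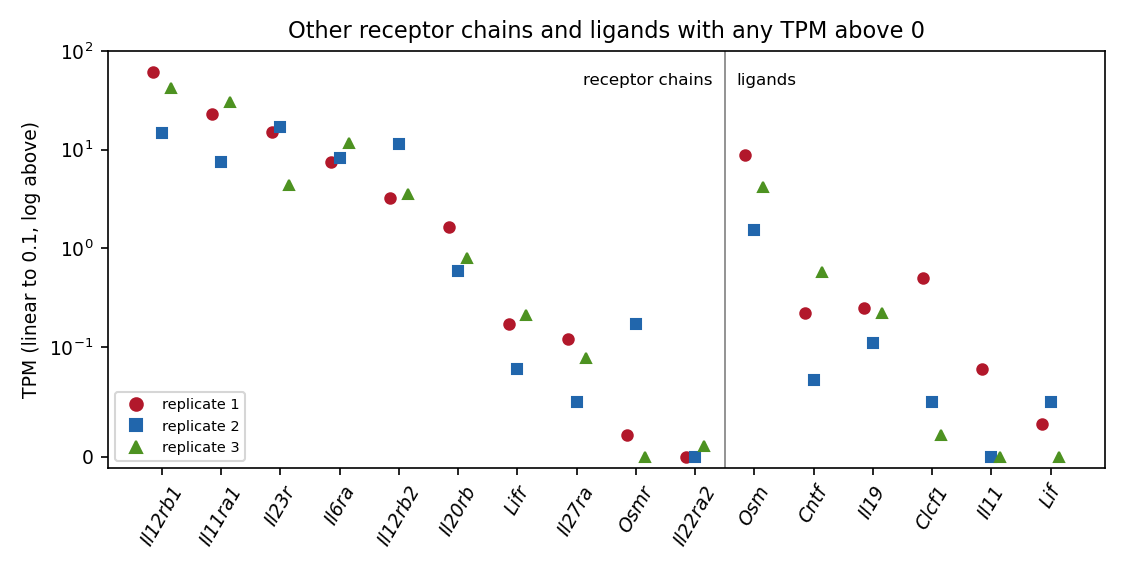
TPM of other receptor chains and ligands of the families with any value above 0, by library, on an axis that is linear up to 0.1 TPM and logarithmic above. Il12rb1, Il11ra1, Il23r and Il6ra lead the receptor chains, Osm leads the ligands, and Il27ra lies at 0.05 to 0.12 TPM.

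Downstream genes were all detected. The 6 signal transducers reached 1 TPM in every library (median mean TPM 93.7), among them Stat3, the main carrier of IL-6 and IL-10 signals, at 112, 133 and 91.7 TPM, and Stat4 at 3.07, 1.29 and 1.71 TPM. All 9 feedback and IL-10 response genes did as well (median 56.5), and 8 of them were highest in replicate 1, where 26.9% of detected genes were. Il1rn, the IL-1 receptor antagonist, stood at 281, 228 and 262 TPM and Nfil3, a repressor of Il12b transcription, at 6.71, 1.19 and 3.69 TPM. Among 18 regulators of Il6, Il10 or Il12b, 17 reached 1 TPM in every library and 11 were highest in replicate 1. The 4 highest were Atf3 (299, 364 and 297 TPM), with its maximum in replicate 2, Batf (341, 159 and 307 TPM), Irf5 (261, 131 and 227 TPM) and Irf1 (244, 215 and 149 TPM). Nfkbid (6.47, 0.79 and 3.77 TPM) and Batf3 (4.41, 1.69 and 5.14 TPM) were the lowest. Cebpb, a C/EBP factor, and the regulator Rela were named after their values were seen. Cebpb stood at 112, 13.9 and 60.2 TPM, highest in replicate 1. Rela stood at 44.7, 153 and 37.8 TPM, highest in replicate 2. A link of either to the level of Il6 was not tested. In the excess spread test 9 of 53 tested genes of the related and marker lists had an unadjusted p under 0.05, against 4.22% of 11932 genes. The lists were chosen with earlier results of these data known, and each of these 9 genes had an edgeR adjusted p of 0.933. They did not share a library: Socs1, Socs3 and Cebpb were highest in replicate 1, Il12rb2, Il23r, Zfp36l1, Cd4 and S100a9 in replicate 2, and Il11ra1 in replicate 3.

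The second quantification of the same reads gave like levels for most of the 10 genes. By limma, 129 of 10212 protein-coding genes were higher in it (1.26%) and 49 lower (0.48%), and 0 of the 9 members tested were among them. Differences of the other 8 ran from -0.23 (Ebi3) to 0.14 (Il27). Il23a, the only member with an unadjusted p under 0.05, stood at 3.23, 0.251 and 0.0730 TPM against 0.68, 0.02 and 0 in the first (difference 0.58 on the log2(TPM + 1) scale, limma adjusted p = 0.0465, below the size threshold of 1). With 0.1 TPM added in place of 1, its difference was 1.48 and passed (limma adjusted p = 4.44e-09). The 2 quantifications gave Il23a different totals, 13, 1 and 0 counts in the first and 147, 16.3 and 4.02 in the second. In replicate 1 they also divided the gene differently between its transcripts. A transcript with a retained intron, Il23a-202, held 139, 16.3 and 4.02 estimated counts in the second quantification and 1.31, 1 and 0 in the first, while the coding Il23a-201 held 7.69 counts in the second and 11.7 in the first in replicate 1, and 0 in replicates 2 and 3. The mean level of Il23a was 0.233 ± 0.387 TPM in the first quantification and 1.19 TPM in the second.

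**Figure D5:**
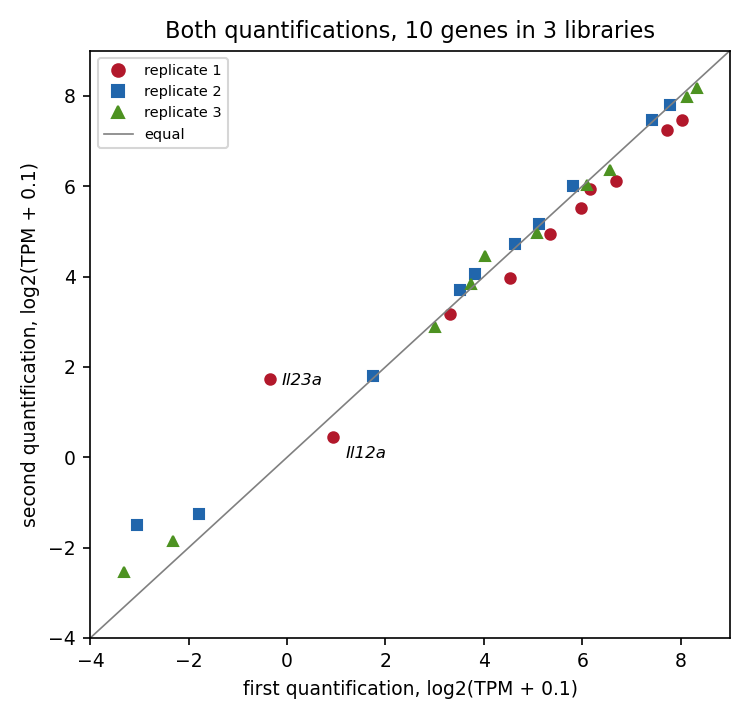
Log2(TPM + 0.1) of the 10 genes in each library in the first (x) and second (y) quantification, with the line of equal values. Most points lie near the line, replicate 1 lies slightly below it, and Il23a lies above it in each library.

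Transcript shares differed for other genes too. Il6-201, the main Il6 transcript, held 95.4%, 58.3% and 95.2% of the gene's TPM in replicates 1, 2 and 3 of the first quantification, with 110 counts for the gene in replicate 2. For Il10ra, Il10ra-201 held 95.8% or more in each library in the first quantification, but in the second Il10ra-202 held 60.5% in replicate 2 (4321 estimated counts) against 2.90% and 2.39% in replicates 1 and 3. The gene total stayed close there, at 55.9 TPM in the first and 64.4 TPM in the second. For Il6st, the 8678-base Il6st-203 held 68.9%, 65.9% and 71.7% in the first and 31.3%, 44.9% and 38.2% in the second, with Il6st-201 taking most of the rest. Ebi3, Il10 and Il27 have a single annotated transcript. Some genes overlap others in the annotation, measured over whole gene spans with introns, so the shared bases need not be messenger sequence. Strandedness is not given, so reads where genes on opposite strands overlap cannot be assigned by strand. Ebi3 shares 2252 bases with the antisense gene Gm16712 (5.20, 7.26 and 3.58 TPM), against a transcript length of 1154 bases. Il27 shares 103 bases with Apobr on the other strand (52.7, 51.3 and 58.8 TPM). Il10rb shares 13288 bases with the protein-coding Gm21970 on the same strand (0, 0.44 and 0.12 TPM). Il10ra shares 236 bases with the pseudogene Gm20612 on the other strand (1.81, 0 and 2.84 TPM) and 65 with Mir7086 on the same strand.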

How the data were processed

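Polyadenylated RNA of 3 libraries of 1 treatment group was analysed. Each library came with a pair of quantifications on mm10 with the GENCODE M21 annotation, per the deposited notes. The first started from transcriptome alignments and the second from reads set against a transcript index. For the tools, sequencer and strandedness, the answer is not given in the sources used here. Per the file headers, the first tables hold expected counts, which share ambiguous reads among transcripts by a model and need not be whole, and the second hold estimated counts of the same kind. TPM (length-corrected transcript abundance on a fixed sum per library) and the percent of a gene's TPM carried by each transcript were also computed by the authors, per the file headers. The second quantification was summed to genes here.

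The 10 genes were found by symbol in the gene and transcript fields of the second tables. Entries without a gene name (0.0875%, 0.0464% and 0.0636% of the counts) were left out of tests. Expected counts were rounded for count tests. Ratios between genes are differences of log2(TPM + 0.1) within a library. Excess spread between libraries was tested with edgeR 4.0.16 (TMM, filterByExpr, quasi-likelihood fit with an intercept, one-sided F test of each residual dispersion against the trend). Counting noise was tested by a chi-square test of homogeneity, and the quantifications were compared with limma 3.58.1 on within-library differences of log2(TPM + 1), called at an adjusted p of 0.05 and a difference of at least 1. Except where called unadjusted, p-values were Benjamini-Hochberg adjusted over all genes tested. Each test was tried on simulated data with a set spread that need not match these libraries. Those trials do not show how often a test would find a difference here. Intervals (95%, exact Poisson) and limits of 3 counts cover counting error only. R 4.3.3 and Python 3.11.15 were used.

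The rule for named genes took all 10 members, up to 4 highest and 2 lowest genes of each related list, and for 4 members the 5 genes of at least 10 TPM whose pattern over the libraries was nearest. Other genes named beside them were chosen after their values were seen. Members and lists were chosen with earlier results of these data known. A planned alignment of the proteins was not run, and the values of some listed genes are not reported here. Per the labels the libraries are biological replicates of 1 donor record, and nothing in the labels says that they came from separate animals or cultures, so p-values measure the spread between these samples only, which may be technical.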

Additional observations from a re-analysis of the deposited data

How the results depend on the processing

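No paired analysis was possible because the libraries form 1 group and their replicate numbers pair nothing. Under alternatives that kept all 3 libraries, 43 values of the 10 ratios moved by less than 1 SD or could not move, and 3 moved by more. The latter were Il12b over Il23a (5.13) and Il27 over Il12a (4.10) with 1 TPM added, as the construction implies for chains near 0, and Il6st over Il6ra (0.20) in the second quantification. Of the levels, 27 moved by less than 1 SD and 3 by more, Il23a in the second quantification (1.19 TPM) and, rescaled to nuclear protein-coding genes, Il10rb (281 TPM) and Il6st (13.7 TPM). Leaving out a library cannot move a mean of 3 by 1 SD, so no stability is read from it: without replicate 1 Il6 was at 5.58 TPM and Il23a at 0.01 TPM, and Il10 over Il6 ranged from 0.31 to 2.72. No ratio changed the sign of its mean. The number of members past the excess spread test was 1 (Il6) without a filter on low counts, 0 to 1 when leaving out each replicate, and 0 otherwise. Over all genes it was 64 without the filter, 20, 7 and 11 without replicates 1, 2 and 3, and 0 otherwise. The number of members read differently by the quantifications was 1 (Il23a) with 0.1 TPM added. The cause was not tested. Members past counting noise numbered 7 to 8 when leaving out each replicate and 10 without a filter. Requiring 1 TPM in every library gave no value for ratios with Il12a or Il23a. It left the other ratios as they were by construction. Limiting TPM to protein-coding transcripts likewise could not change ratios of genes with a single annotated transcript. Such values are among the 43, and no stability is read from them. In the first quantification Il12a and Il23a had at most 29 and 13 counts, which limits the precision of their values.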
